A study of Mus musculus with 4 samples.

Results

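Adad2 and 8 related genes were followed by RNA sequencing in Adad2-knockout and wild type mouse testes. The 9 genes were chosen by symbol: the deaminase domain family (Adad2, Adad1, Adar, Adarb1 and Adat1) and double-stranded RNA binding proteins known from testis (Tarbp2, Strbp, Stau1 and Stau2). All 9 were found, with 1 entry each, among 26068 entries with a gene name. There were 2 libraries from whole testes of homozygous Adad2-knockout mice and 2 from wild type testes, all of male B6D2F1 mice at 24 days of age, when the first wave of germ cells is forming spermatids. The labels do not say which part of Adad2 was removed or whether the replicates are separate animals, so p-values measure only the spread between these libraries, which may be technical. The series' title places the question in the making of piRNAs, the small RNAs of the germ line, and in the shaping of spermatids.

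Proteins with double-stranded RNA binding domains recognise the shape of paired RNA rather than its sequence. The ADAR enzymes use such domains to reach paired RNA and convert adenosine to inosine there, and the tRNA deaminase ADAT1 carries the related catalytic domain. ADAD1 and ADAD2 are germ cell proteins that pair an RNA binding domain with a domain of the deaminase type and are thought to lack the residues needed for catalysis. In mice, Tarbp2 and Strbp are known for binding protamine messenger RNAs and for roles in spermatid development, and the Staufen proteins for carrying and degrading messenger RNAs. Editing itself cannot be seen in values per gene.

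Values were deposited as log2 RPKM, reads per kilobase of gene and by library size, so levels of different genes can be set side by side. The steps between low values put the depth at about 33225000 and 29450000 reads in knockout replicates 1 and 2, and at about 30300000 and 37200000 reads in wild type replicates 1 and 2. The 9 genes were then covered by an estimated 181 to 6693 reads in a library. Genes with a mean of at least 0 on the log2 scale, which is 1 RPKM, were tested with limma, and a Benjamini-Hochberg adjusted p under 0.05 over all genes was taken as the threshold. Of 13414 genes tested, 7.15% were lower and 1.22% were higher in the knockout at this threshold, and the median change of all tested genes was 0.14 on the log2 scale. Of the 9 genes 8 were tested, since the mean of Stau2 lay just under the limit at -0.09.

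Adad2 fell and Stau1 rose in the knockout, and the other 6 tested genes did not pass the threshold. Thus 2 of 8 genes were called in either direction, beside 8.36% of all genes tested. In each direction 1 of 8 was called, beside 7.15% lower and 1.22% higher. Adad2 is the gene targeted in the knockout, so its call is no result about its relatives. Apart from Adad2, Stau1 was the only tested member called. The median change of the 8 genes was 0.20, and 5 of them had a change above 0, against 71.8% of all genes tested. Knockout and wild type values did not overlap in 7 of the 8 tested genes. Among all genes tested the groups were likewise apart in 63.2%, with the knockout higher in 46.4% and lower in 16.8%, so this count says little about these genes.

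**Figure D1:**
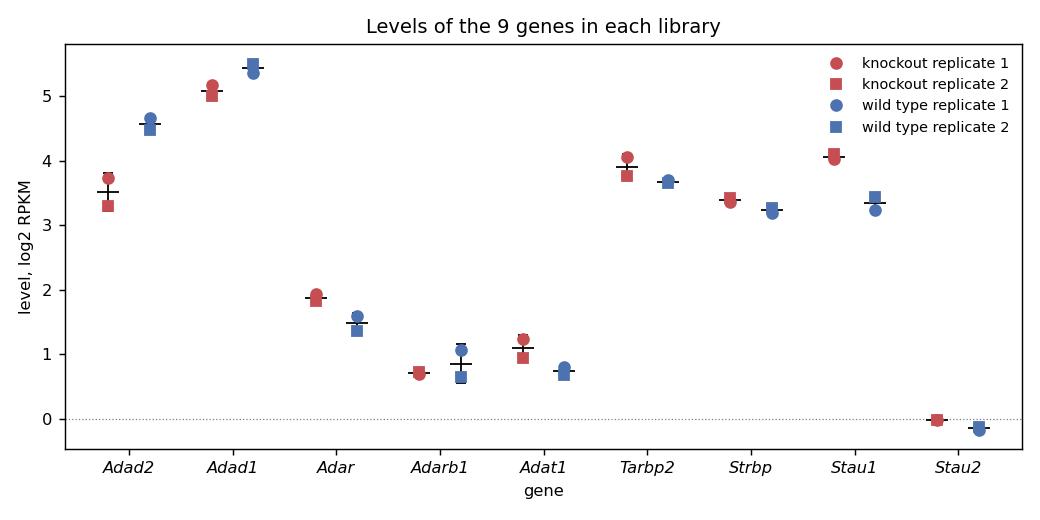
Level of each of the 9 genes in log2 RPKM (vertical axis), with knockout libraries in red to the left of wild type libraries in blue; points are single libraries and black bars are the mean ± SD of 2 libraries. Adad2 is lower in both knockout libraries (3.73 and 3.30) than in both wild type libraries (4.66 and 4.47), and Stau1 is higher in both knockout libraries (4.03 and 4.10, against 3.24 and 3.44).

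The targeted gene was measured first. Adad2 (ENSMUSG00000024266, chromosome 8, 122136647 to 122140826 on the plus strand in mm9) stood at 13.2 and 9.86 RPKM in knockout replicates 1 and 2, against 25.2 and 22.2 RPKM in wild type replicates 1 and 2. Both knockout libraries lay under both wild type libraries, and the nearest pair was 0.75 apart on the log2 scale. The log2 level was 3.51 ± 0.30 in the knockout and 4.56 ± 0.13 in the wild type (mean ± SD, n = 2 each). This is a difference of -1.05 on the log2 scale (SE 0.16, interval from -1.42 to -0.68 at 95% confidence), 2.07-fold lower (limma adjusted p = 0.00604). An estimated 847 and 559 reads still fell on the gene in the knockout libraries, beside 1473 and 1589 in the wild type libraries, so Adad2 RNA was detected in every library. The values are per gene and do not show what part of the transcript remained. Among the 959 genes called lower, Adad2 was number 628 by the size of its change, and the median change of those genes was -1.38. With wild type replicate 1 left out the adjusted p was 0.143, and with wild type replicate 2 left out it was 0.0838, so the call was lost; in these settings 0 and 310 genes in all were called.

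Stau1, which encodes a protein that binds paired stretches of messenger RNAs and takes part in their transport and decay, was the member called higher. Stau1 (ENSMUSG00000039536, chromosome 2, 166773049 to 166821799 on the minus strand in mm9) stood at 16.3 and 17.1 RPKM in knockout replicates 1 and 2, against 9.46 and 10.9 RPKM in wild type replicates 1 and 2. The knockout libraries were close together and both lay above the wild type libraries, with the nearest pair 0.59 apart on the log2 scale. The log2 level was 4.07 ± 0.05 in the knockout and 3.34 ± 0.14 in the wild type (mean ± SD, n = 2 each). The difference was 0.72 (SE 0.11, interval from 0.47 to 0.98 at 95% confidence), 1.65-fold higher (limma adjusted p = 0.005). It was number 72 by size of increase among the 13414 genes tested and number 45 among the 163 called higher, whose median change was 0.58. The call was lost when either wild type library was left out (adjusted p = 0.0984 without replicate 1 and 0.0513 without replicate 2), while the direction was the same.

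The sequences in front of the start sites of the 2 genes that passed the threshold, Adad2 and Stau1, are shown because these genes moved in opposite directions. They are the 250 bases before the RefSeq start on the gene's own strand in GRCm38.p6, a later build than that of the values, at chr8:119612463-119612712 (plus strand) for Adad2 and at chr2:166996300-166996549 (minus strand), the outermost of 2 annotated starts, for Stau1. Capitals mark CCAAT boxes (CCAAT or ATTGG) and GC boxes (GGGCGG or CCGCCC).
Adad2: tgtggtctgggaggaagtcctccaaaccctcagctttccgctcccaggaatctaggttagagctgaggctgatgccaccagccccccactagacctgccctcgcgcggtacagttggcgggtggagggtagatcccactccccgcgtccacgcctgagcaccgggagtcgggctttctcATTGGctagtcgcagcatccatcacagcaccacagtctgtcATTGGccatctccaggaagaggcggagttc
Stau1: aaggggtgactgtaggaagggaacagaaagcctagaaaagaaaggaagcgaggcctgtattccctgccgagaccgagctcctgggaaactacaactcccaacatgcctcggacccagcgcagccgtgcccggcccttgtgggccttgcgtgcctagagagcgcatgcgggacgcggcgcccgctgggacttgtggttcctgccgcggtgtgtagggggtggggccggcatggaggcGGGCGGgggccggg

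The Adad2 window held 2 CCAAT boxes, both as ATTGG on the printed strand, beginning 71 and 30 bases before the start, and 0 GC boxes. The Stau1 window held 1 GC box and 0 CCAAT boxes. Of all 32851 windows of this length in the RefSeq table, 33.8% held a CCAAT box, 10.1% held at least 2, and 32.7% held a GC box, so either motif is common. Neither window held the CRE core TGACG or its reverse complement CGTCA, which 17.8% of all windows held. GC content was 61.2% for Adad2 and 66.4% for Stau1, beside a median of 52.4% over all windows. RefSeq windows were matched by symbol for 6 of the 9 genes. Among genes not called, CCAAT boxes lay before at least 1 start of Adar, Strbp and Tarbp2. GC boxes lay before at least 1 start of Adar, Adarb1, Strbp and Tarbp2. A link between these motifs and the changes was not tested.

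Adad1, the germ cell relative of Adad2 that in mice is needed for male fertility, had the highest level of the 9 genes in every library. Adad1 (ENSMUSG00000027719, chromosome 3, plus strand) stood at 36.0 and 32.2 RPKM in knockout replicates 1 and 2, against 41.3 and 45.2 RPKM in wild type replicates 1 and 2. Both knockout libraries were the lower ones, 0.20 apart from the nearest wild type library on the log2 scale. The change was -0.34 (SE 0.11), its 95% confidence interval ran from -0.60 to -0.08, and it had an unadjusted p of 0.0157 and a limma adjusted p = 0.111. It passed the threshold after quantile normalization (adjusted p = 0.0403), which sets the libraries to a common distribution of values. The table's entry for Il2 overlaps the end of Adad1 on the opposite strand and lay between -0.79 and -0.59 log2 RPKM in the 4 libraries. Whether reads were counted by strand was not given by the sources used here, so reads of the shared stretch may not be told apart.

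The editing enzymes were measured at low levels. Adar, which edits paired RNA in most tissues and in mice keeps the cell's own RNA from being sensed as foreign, stood at 3.81 and 3.55 RPKM in knockout replicates 1 and 2, against 3.02 and 2.57 RPKM in wild type replicates 1 and 2. Both knockout libraries lay above both wild type libraries. The change was 0.40 (SE 0.14), its 95% confidence interval ran from 0.07 to 0.73, and it had an unadjusted p of 0.0241 and a limma adjusted p = 0.134, so it did not pass the threshold. Adarb1, the ADAR2 enzyme known for editing glutamate receptor transcripts in brain, stood at 1.61 and 1.66 RPKM in knockout replicates 1 and 2, against 2.09 and 1.56 RPKM in wild type replicates 1 and 2. The wild type libraries spanned both knockout values, and it was the 1 gene of the 9 whose groups overlapped. Its change was -0.14 (95% confidence interval -0.60 to 0.31, limma adjusted p = 0.63), and without wild type replicate 1 it was 0.070.

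Adat1, which deaminates an adenosine in the anticodon loop of a transfer RNA, stood at 2.35 and 1.92 RPKM in knockout replicates 1 and 2, against 1.75 and 1.61 RPKM in wild type replicates 1 and 2. The groups did not overlap, with the knockout libraries above. The change was 0.34 (SE 0.18, 95% confidence interval -0.07 to 0.75), and the limma adjusted p was 0.242. Adat1 rested on an estimated 344 and 249 reads in the knockout libraries and 234 and 263 in the wild type libraries.

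Tarbp2, the partner of Dicer that was also found as a protamine RNA binding protein in mouse, stood at 16.6 and 13.6 RPKM in knockout replicates 1 and 2, against 13.0 and 12.6 RPKM in wild type replicates 1 and 2. Knockout replicate 1 stood apart, while knockout replicate 2 was 0.07 above the nearest wild type library on the log2 scale. The change was 0.23 (SE 0.12, 95% confidence interval -0.05 to 0.51, limma adjusted p = 0.242), and 0.09 without knockout replicate 1. Strbp, the spermatid perinuclear RNA binding protein, stood at 10.3 and 10.7 RPKM in knockout replicates 1 and 2, against 9.12 and 9.66 RPKM in wild type replicates 1 and 2. The knockout libraries were again the higher ones, by a margin of 0.09 on the log2 scale. The change was 0.16 (SE 0.10, 95% confidence interval -0.07 to 0.40, limma adjusted p = 0.308), close to the 0.14 of the median gene. Rabgap1 overlaps Strbp on the opposite strand in the table and was not called.

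Stau2, the Staufen relative best known for carrying messenger RNAs in neurons, had the lowest level of the 9 genes. It stood at 0.985 and 0.986 RPKM in knockout replicates 1 and 2, against 0.887 and 0.915 RPKM in wild type replicates 1 and 2. The replicates of each group nearly coincided, and the knockout libraries lay 0.11 above the wild type on the log2 scale. The difference of means was 0.13. It was tested only where all entries were kept, with a 95% confidence interval of -0.37 to 0.63 and a limma adjusted p = 0.841. An entry inside Stau2 on the opposite strand, Gm7568, was at -3.46 and -5.04 log2 RPKM in the knockout libraries and at 0.25 and 0.37 in the wild type libraries, and was under the limit for testing.

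**Figure D2:**
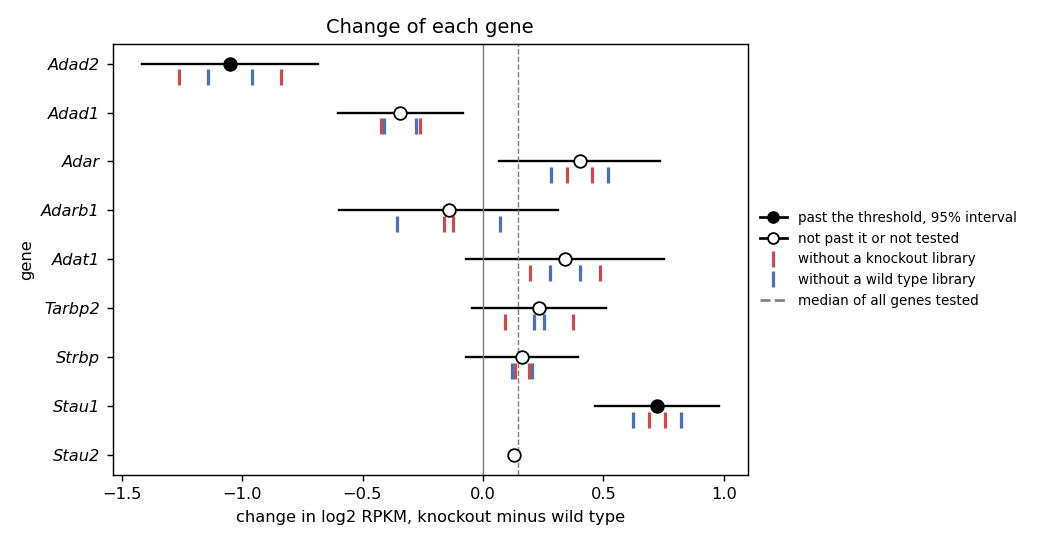
Change of each gene in log2 RPKM, knockout minus wild type (horizontal axis), with 95% confidence intervals as lines and the changes found when 1 library was left out as ticks below. Filled points passed the threshold (Adad2 at -1.05 and Stau1 at 0.72); the ticks of Adarb1 lie on both sides of 0, and Stau2 has no interval because it was not tested.

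The order of levels among the 9 genes was similar in both groups, apart from the places of Adad2 and Stau1 and of the low pair Adarb1 and Adat1. In the knockout the mean levels ran from Adad1 (5.09 log2 RPKM) through Stau1 (4.07), Tarbp2 (3.91), Adad2 (3.51), Strbp (3.39), Adar (1.88), Adat1 (1.09) and Adarb1 (0.71) to Stau2 (-0.02). In that order the libraries of Stau1 and Tarbp2 overlapped, and so did those of Adad2 and Strbp. In the wild type the order was Adad1 (5.43), Adad2 (4.56), Tarbp2 (3.68), Stau1 (3.34), Strbp (3.23), Adar (1.48), Adarb1 (0.85), Adat1 (0.75) and Stau2 (-0.15), with overlap between Stau1 and Strbp and between Adarb1 and Adat1. Adad2 was above 84.4% of all named entries in the knockout and above 93.1% in the wild type. Stau1 was above 89.8% of the entries in the knockout and above 82.8% in the wild type.

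**Figure D3:**
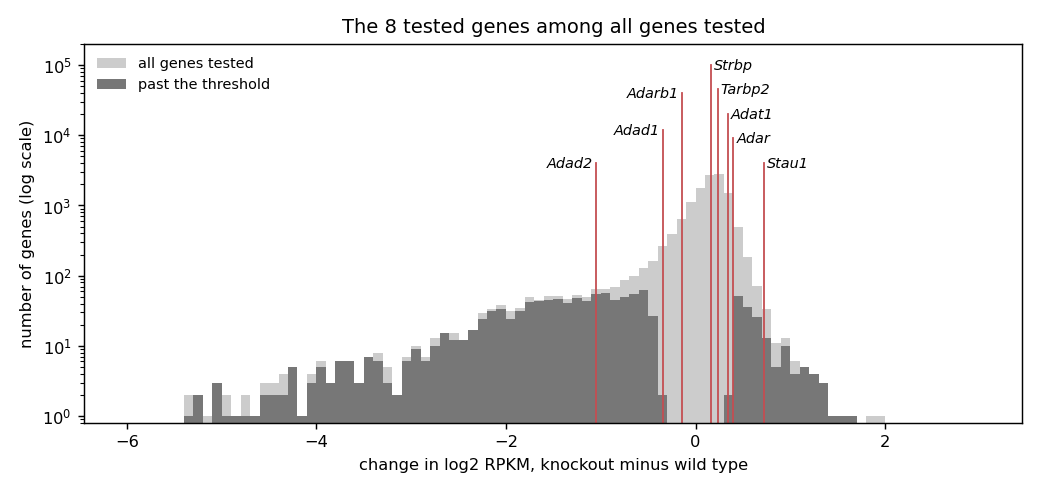
Number of genes (log scale) by change in log2 RPKM, knockout minus wild type, for all 13414 genes tested in light grey and for those past the threshold in dark grey; red lines mark the 8 tested genes. Adad2 lies in the long lower tail and Stau1 near the upper edge, while the median gene lies at 0.14. The other 6 run from -0.34 for Adad1 to 0.40 for Adar. Among the 13414 genes Adad1 is number 1499 from the lowest change and Adar number 824 from the highest.

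Ratios of related genes were compared within each library, where depth cancels. The log2 ratio of Adad2 to Adad1 was -1.44 and -1.71 in knockout replicates 1 and 2, against -0.71 and -1.03 in wild type replicates 1 and 2, so Adad1 exceeded Adad2 2.72 to 3.27 times in the knockout and 1.64 to 2.04 times in the wild type. The ratio of Adarb1 to Adar was -1.24 and -1.10 in knockout replicates 1 and 2, against -0.53 and -0.72 in wild type replicates 1 and 2. That of Stau2 to Stau1 was -4.05 and -4.12 in knockout replicates 1 and 2, against -3.41 and -3.57 in wild type replicates 1 and 2. These 3 ratios were lower in both knockout libraries than in both wild type libraries. How often other pairs of genes differ in this way was not tested. Among single genes, knockout and wild type values did not overlap in 63.2% of those tested. The ratios with Adad2 and with Stau1 contain the changes of these called genes (-1.05 and 0.72), so they are no separate results. The ratio of Strbp to Tarbp2 was -0.69 and -0.35 in knockout replicates 1 and 2, against -0.51 and -0.38 in wild type replicates 1 and 2, and there the groups overlapped. The differences of the mean log2 ratios, knockout minus wild type, were -0.71, -0.54, -0.59 and -0.07 in this order. An exact two-sided permutation test gave p = 0.33 for each of the first 3 pairs, the smallest that 2 libraries against 2 allow, and p = 1 for the last, or 0.44 and 1 after Benjamini-Hochberg adjustment over the 4 pairs.

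**Figure D4:**
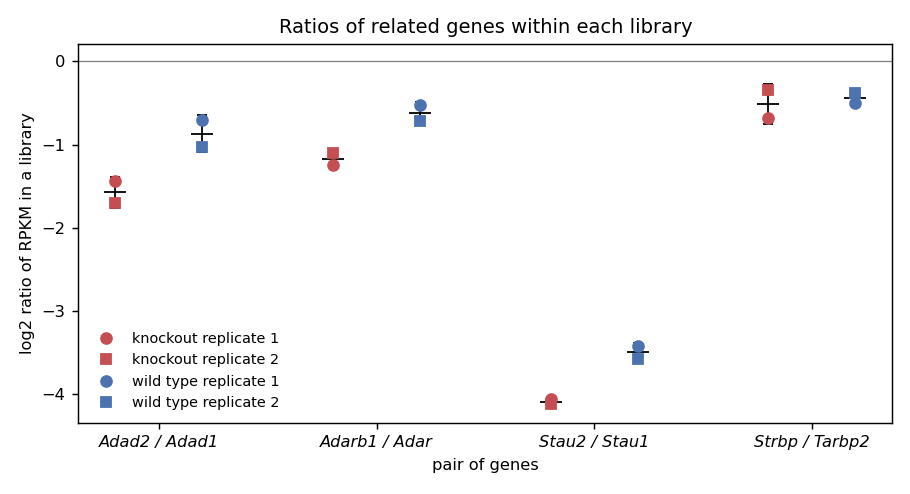
Log2 ratio of RPKM between related genes within each library (vertical axis), with knockout libraries in red to the left of wild type libraries in blue and black bars for the mean ± SD of 2 libraries. The first 3 ratios are lower in both knockout libraries, for Adad2 to Adad1 at -1.44 and -1.71 against -0.71 and -1.03, while the Strbp to Tarbp2 ratios overlap.

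Other genes with double-stranded RNA binding domains, their partners and other deaminases were read from a list of 19 symbols for 18 genes, Dus2 being listed under a present and an older name. The table held all 18 genes, and 17 were tested. Of these 1 fell, beside 7.15% of all genes tested, 0 rose, beside 1.22%, and 16 were not called. At an unadjusted p under 0.05 there were 5 of the 17, beside 27.0% of all genes tested, and the median change was 0.16 beside 0.14 over all genes tested. The gene that fell was Adat2, the catalytic subunit of the enzyme that deaminates the wobble adenosine of transfer RNAs. Adat2 stood at 2.23 and 2.05 log2 RPKM in knockout replicates 1 and 2, against 2.87 and 2.83 in wild type replicates 1 and 2 (change -0.71, SE 0.12, limma adjusted p = 0.00721). Both knockout libraries were the lower ones. The change of Adat3, the other subunit of that enzyme, was -0.07 (95% confidence interval -0.31 to 0.18, adjusted p = 0.685). The call of Adat2 was lost without wild type replicate 1 (adjusted p = 0.152) or replicate 2 (adjusted p = 0.11).

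Cdkn2aip, a nuclear protein with an RNA binding domain, had the next lowest change on that list, at -0.46 (95% confidence interval -0.73 to -0.18, limma adjusted p = 0.0584). It passed the limma threshold among genes with a mean of at least 2 on the log2 scale (adjusted p = 0.0346) and with equal library medians (0.0347). Cdkn2aip also passed with the replicate number as a block (0.000459), which called 1477 of all 13414 genes lower, against 959 without the block. Without knockout replicate 1 its change was -0.57. At the other end stood Mrpl44, a protein of the mitochondrial ribosome, with a change of 0.32 (adjusted p = 0.124), and Zfr2, a zinc finger RNA binding protein, with 0.29 (adjusted p = 0.324). The changes of the microRNA processing enzymes Dicer1 and Drosha were 0.23 and 0.22, and neither passed the threshold. Adarb2, the ADAR relative of brain, was at -8.47 and -8.31 log2 RPKM in the knockout and at -8.34 and -8.48 in the wild type, under the limit for testing. These levels, 0.0028 to 0.0032 RPKM, are so low that detection cannot be claimed.

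Sensors of double-stranded RNA and the interferon genes they induce were looked at because in mice the loss of Adar activates them. Of 20 listed genes, 5 reached the level for testing. limma called 0 of these 5, beside 8.36% of all genes tested, with 1 at an unadjusted p under 0.05, beside 27.0%. Their median change was 0.28, beside 0.14 over all genes tested. With all entries kept limma called 0 of the 20, beside 1175 of all 26068 entries, so this count says little. The median change of the 20 was 0.12, beside 0.10 over all entries, and 7 of the 20 changes lay below 0. Mavs, the adaptor of the cytoplasmic sensors, had a change of 0.42 (95% confidence interval 0.10 to 0.73, adjusted p = 0.11), and Oasl2, an interferon-induced gene, of 0.44 (-0.01 to 0.88, adjusted p = 0.192). Mavs was called higher with the replicate number as a block (limma adjusted p = 0.00669). That setting called 1837 of all 13414 genes higher, against 163 without the block. Without knockout replicate 1 its change was 0.53. Dhx58, a helicase of the sensor family, had a change of 0.18 (adjusted p = 0.341), which ranged from 0.05 to 0.32 when 1 library was left out. The sensors Ifih1 and Ddx58 were under the level for testing, with mean levels of -0.79 and -0.55 log2 RPKM in the knockout and -0.88 and -0.69 in the wild type.

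Genes next to Adad2 on chromosome 8 were read as well, since the targeted region lies among them. Within 200 kb the table held 12 other entries, of which 10 were tested. Of these 1 was lower and 0 were higher, beside 7.15% and 1.22% of all genes tested, and the median change was 0.20. The nearest genes are Kcng4, a potassium channel subunit whose entry lies 6.93 kb beyond Adad2, and Taf1c, a factor of RNA polymerase I, 7.525 kb before it. Their changes were 0.27 (95% confidence interval -0.08 to 0.62, limma adjusted p = 0.274) and 0.21 (-0.05 to 0.46, adjusted p = 0.255), and that of Kcng4 ranged from 0.11 to 0.43 when 1 library was left out. Lrrc50, a gene of dynein arm assembly 14.3 kb before Adad2, stood at 7.23 and 7.26 log2 RPKM in the knockout and at 7.12 and 7.43 in the wild type (change -0.03, adjusted p = 0.885).

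The neighbour that was lower was Osgin1, an oxidative stress response gene 166 kb before Adad2. Osgin1 stood at 0.65 and 0.83 log2 RPKM in knockout replicates 1 and 2, against 2.07 and 2.47 in wild type replicates 1 and 2, with no overlap. The change was -1.53 (SE 0.18, limma adjusted p = 0.00131), 2.89-fold lower. The adjusted p was 0.0581 without wild type replicate 1 and 0.0571 without wild type replicate 2. The changes of the 6 other tested neighbours, Necab2, Mbtps1, Hsdl1, Wfdc1, 4632415K11Rik and Cotl1, ranged from -0.50 for 4632415K11Rik to 0.28 for Mbtps1, and none of the 6 passed the threshold (adjusted p from 0.116 to 0.559). Without knockout replicate 2 the change was 0.58 for Necab2 and -0.66 for 4632415K11Rik. With the replicate number as a block 4632415K11Rik was called lower (limma adjusted p = 0.00317). That setting called 1477 of all 13414 genes lower, against 959 without the block.

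**Figure D5:**
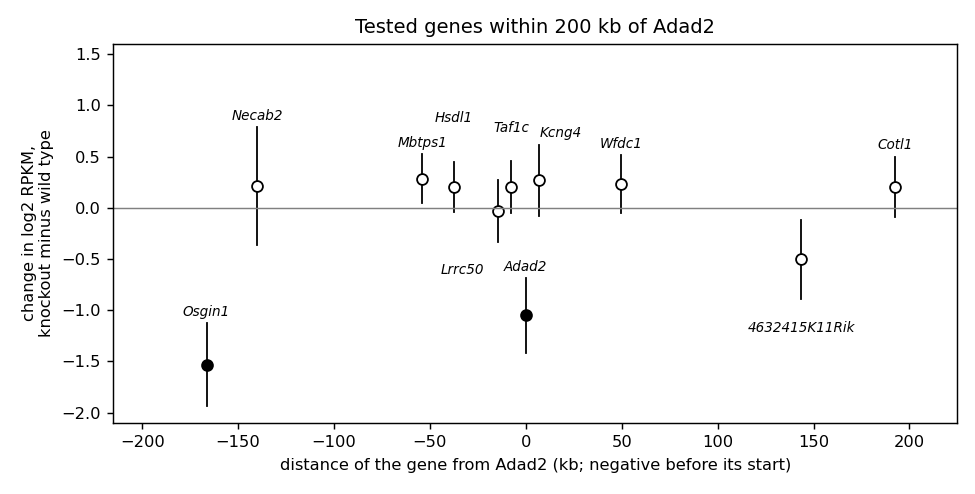
Change in log2 RPKM, knockout minus wild type (vertical axis), of the tested genes within 200 kb of Adad2 by their distance from it in kb (horizontal axis), with 95% confidence intervals. Filled points passed the threshold: Adad2 at -1.05 and Osgin1 at -1.53, while the nearest genes Taf1c and Kcng4 lie at 0.21 and 0.27.

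The tested genes whose levels ran most like those of Adad2 over the 4 libraries were Ccdc67, Adam1a, Tulp2, Ccdc46 and Prr22, leaving out clone names. Likeness was the Euclidean distance between log2 values after each gene's own mean was taken off, and it was 0.03 for Ccdc67, 0.04 for Adam1a, 0.09 for Tulp2 and 0.10 for Ccdc46 and Prr22. Ccdc67 stood at 3.78 and 3.36 log2 RPKM in knockout replicates 1 and 2, against 4.71 and 4.50 in wild type replicates 1 and 2. Changes of these 5 genes were between -1.14 and -0.98. The genes most like Adad1 were Hist2h2aa1, Gtf2a1l, Cdkn3, Ndufaf2 and Wdr52, at distances of 0.03 to 0.04, with changes between -0.38 and -0.32. With 4 libraries many genes share such a pattern.

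Markers of spermatids fell between the same libraries, and their part in the results above was not tested. Of 18 markers of round and elongating spermatids, 16 fell, beside 7.15% of all genes tested, and 0 rose, beside 1.22%. Their summed level was 260 and 180 RPKM in the knockout libraries, against 1397 and 1307 RPKM in the wild type libraries. Prm1, a protamine of the sperm nucleus, stood at 2.32 and 1.12 log2 RPKM in knockout replicates 1 and 2, against 6.98 and 7.04 in wild type replicates 1 and 2. Acrv1, of the acrosome, stood at 3.67 and 2.82 in knockout replicates 1 and 2, against 5.81 and 5.55 in wild type replicates 1 and 2. Without wild type replicate 1 the median change of the 18 was -2.22, and without wild type replicate 2 it was -2.42. All 18 changes stayed below 0 in both settings. Calls were fewer there and are not counted, since each setting leaves 1 wild type library. The lowest of these markers in the knockout was Spem1, at -0.24 and -1.77 log2 RPKM, against 3.72 and 3.79 in the wild type libraries. In whole testis, fewer cells of a type and less RNA per cell cannot be told apart.

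Markers of meiotic spermatocytes summed to 2469 and 2351 RPKM in the knockout libraries, against 1974 and 2269 RPKM in the wild type libraries. Of 15 such markers 1 fell, beside 7.15% of all genes tested, and 1 rose, beside 1.22%. The marker that rose was Tex101, a germ cell surface protein, at 466 and 483 RPKM in knockout replicates 1 and 2, against 202 and 231 RPKM in wild type replicates 1 and 2 (2.20-fold higher, limma adjusted p = 0.000977). The marker that fell was Pgk2, the germ cell form of a glycolytic enzyme (change -0.62, limma adjusted p = 0.0216). The call of Tex101 was lost without wild type replicate 1 (adjusted p = 0.0535), and that of Pgk2 without wild type replicate 1, wild type replicate 2 or knockout replicate 2 (adjusted p from 0.144 to 0.179), with all entries kept (0.0701) and with the plain variance model (0.055). Without Tex101, a choice made after seeing the data, the sums overlapped. They were 2003 and 1868 RPKM in the knockout libraries, against 1772 and 2039 RPKM in the wild type libraries. Ldhc led these sums, at 1010 and 897 RPKM, against 893 and 1057 RPKM. Of all 15 markers 12 had a change above 0, beside 71.8% of all genes tested, and the median was 0.21. In 10 of the 15 both knockout libraries were higher, beside 46.4%, and in 1 both were lower, beside 16.8%. Sycp3, of the synaptonemal complex, had a change of 0.29 (limma adjusted p = 0.17). Sertoli markers summed to 518 RPKM in each of the knockout libraries, against 431 and 410 RPKM in the wild type libraries. limma called 0 of 8 Sertoli markers, beside 8.36% of all genes tested, with 5 at an unadjusted p under 0.05, beside 27.0%. The change of Sox9 was 0.24 (limma adjusted p = 0.223). Cyp17a1, of Leydig cells, varied within the groups, with 4.63 and 5.85 log2 RPKM in knockout replicates 1 and 2, against 3.85 and 6.02 in wild type replicates 1 and 2. Nr5a1, on the same list, varied less, at 3.56 and 3.66 in the knockout, against 3.34 and 3.23 in the wild type. Of the 8 Leydig markers 7 changes lay above 0, beside 71.8% of all genes tested. Their median was 0.19, beside 0.14 over all genes tested. When 1 library was left out this median ranged from -0.16 (without wild type replicate 1) to 0.43 (without knockout replicate 1). Hbb-b1, a sign of blood, stood at 3.41 and 3.79 in knockout replicates 1 and 2, against 4.93 and 3.87 in wild type replicates 1 and 2, highest in wild type replicate 1. Of 5 tested red blood cell markers 4 changes lay below 0, while 71.8% of all genes tested had a change above 0. The change of Alas2 lay above 0, with 1.55 and 1.74 in the knockout, against 1.39 and 1.56 in the wild type.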

How the data were processed

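Libraries were prepared from total RNA of whole testes (TruSeq RNA kit, per the labels' protocols), and the submitters' processing notes name Bowtie2, bcl2fastq 2.17.1.14 and mm9. Which counter, annotation and strand setting were used is not given in the sources used here. The authors deposited log2 RPKM values for 26127 entries; 59 of them carry no gene name and were dropped. Columns were matched to samples by group and number. The authors' group means, and their difference, control minus null, were not used.

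Depth was estimated from genes of a single exon. The depth kept was that at which the largest share of values of 2 to 10 reads was whole within 2%. This share was 95.2% to 97.9% and, being the one maximised, is no separate check of the depth. Entries without reads carry about 0.9 of a read. Reads per gene were computed with Gencode M21 exon lengths by gene identifier and are approximate. Coordinates of genes are those of the table in mm9.

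Knockout was compared with wild type with limma 3.58.1 (R 4.3.3, statmod 1.5.0) on the log2 values, with trend and robust estimation, two-sided and unpaired. No pseudocount was added, and folds of low genes are understated. The code was tested on simulated data. Related genes were compared as log2 ratios within a library. Named outside the 9 genes were called list members, the 2 largest and 2 smallest changes of each list, tested neighbours, the 5 genes nearest in pattern and 6 cell type markers. Adat3, Dicer1, Drosha, Adarb2, Ifih1, Ddx58, Tex101, Pgk2, Spem1, Ldhc, Nr5a1, Alas2 and the overlapping entries were added after their values were seen. A gene that this rule names is left out of the text. The 9 genes and the lists were chosen with earlier results of these data known, so agreement with those results is no independent support. Lists of spermatogonia, peritubular and endothelial cells and macrophages were also read. Of their tested members limma called 0 of 8, 0 of 5 and 1 of 6, beside 8.36% of all genes tested. At an unadjusted p under 0.05 there were 4, 1 and 1, beside 27.0% of all genes tested. The same counts were 0 of 8 and 1 for Leydig cells and 0 of 5 and 0 for red blood cells. Alternatives were other filters, a pseudocount of 1 RPKM, scaling to equal medians or by quantiles, a plain limma variance model, a block for the replicate number, and leaving out each library.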

Additional observations from a re-analysis of the deposited data

How the results depend on the processing

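Of all genes tested, 959 were lower and 163 higher. With all entries kept 97 were higher. With a mean of at least 2 on the log2 scale 637 were lower and 220 higher. After quantile normalization 1093 of 13414 genes were lower and 245 higher. Of the 8 tested members 2 were then lower, Adad1 joining Adad2 (change -0.34, limma adjusted p = 0.0403). With equal library medians the median change was 0.13. Leaving out 1 library, which leaves its group with a lone library assumed to vary like the other group, gave 0 to 1308 lower, 0 to 494 higher and 0 to 1713 genes in all, and 0 to 1 of the 9 genes in each direction. Over these settings the change ranged from -1.26 to -0.84 for Adad2, 0.62 to 0.82 for Stau1, -0.42 to -0.26 for Adad1, 0.28 to 0.52 for Adar, -0.36 to 0.070 for Adarb1, 0.20 to 0.49 for Adat1, 0.12 to 0.20 for Strbp and 0.09 to 0.37 for Tarbp2. Among other named genes, direction turned for Necab2 (-0.15 to 0.58), Lrrc50 (-0.18 to 0.12) and Cyp17a1 (-0.78 to 1.39). The cause was not tested.

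The replicate numbers are shared between the groups, but nothing in the labels says that they pair animals. Deviations of same-numbered libraries from their group means correlated at 0.33 across genes. With the replicate number as a block limma called 3314 genes, 1477 lower and 1837 higher. Of the 8 tested members it called 2 in each direction, adding Adad1 (-0.34, adjusted p = 0.035) and Adar (0.40, adjusted p = 0.0214). Prm1 was not past the threshold with the block (adjusted p = 0.0986), while Cdkn2aip, Mavs, Mrpl44, Mbtps1, 4632415K11Rik, Cdkn3, Ndufaf2 and Wdr52 were (adjusted p from 0.000459 to 0.0461). No member had a repeated symbol, so other entries of a symbol could not be tried, and Stau2 could be tested only with all entries kept. With 2 libraries a group, every call leans on variances that limma shares between genes.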
